A study of Mus musculus with 6 samples.

Results

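The genes of the cytosolic ribosomal proteins, the protein components of the large and small subunits of the ribosome, were described in 6 mouse RNA sequencing libraries. They were chosen by symbol (the Rpl and Rps names with a number, Rplp0 to Rplp2 and Rpsa) and selected on their mean level, which had to reach 1 FPKM. FPKM is a fragment count scaled to transcript length and library depth. Of 85 symbols of that form, 82 passed, 50 for the large and 32 for the small subunit, among 21399 genes in the tables. The mean used all 6 libraries whatever their label.

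The compared libraries were 3 labelled KO and 3 labelled WT, called KO 1 to 3 and WT 1 to 3 here. Per the series' design text, microglia of KO or WT mice carrying the CD45.2 form of the leukocyte protein CD45 went through oxygen and glucose deprivation, a cell model of stroke, and were then reoxygenated together with peritoneal macrophages of CD45.1 mice. All 6 libraries shared the deprivation and the co-culture. That text names the sequenced cells as microglia and gives them the CD45.1 mark of the added macrophages, while the labels of each library name both cell types. No label names the gene deleted in the KO mice; the title of the series mentions PPARα, a lipid-sensing nuclear receptor. No promoter, Cre line or age is given, nor whether each library had its own culture or animal. Every p-value below is therefore measured against the spread of these libraries alone, and that spread may be technical.

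Ribosomal proteins are needed in nearly equal numbers, and surplus copies are degraded. Their mRNAs are among the most abundant of any cell. Most begin with a terminal oligopyrimidine (TOP) sequence, a C followed by a run of C and T bases, through which the kinase complex mTORC1 and the RNA-binding protein LARP1 control their translation and stability together. In immune cells, growth and activation through mTORC1 raise the translation of these mRNAs.

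Since TOP sequences lie at the start of the mRNA, the start windows are shown for some of those that the results turn on: the gene with the highest level (Rps27), a target of mTORC1 signalling (Rps6), a gene with a library order of its own (Rplp2), a gene far down the order of differences (Rps24) and 2 low paralogs (Rpl22l1 and Rps27l). Each window runs 25 bases before to 25 bases from the annotated start, 5′ to 3′ on the gene's strand, from RefSeq on GRCm38.p6, and crosses the promoter and the first exon. Capitals mark the pyrimidine run, a C followed by at least 7 bases that are C or T, that begins within 20 bases of the annotated start. In Rps27l the marked run ends before the annotated start, and a run of the same length further upstream is left unmarked.
Rps27 (chr3:90213624-90213673, minus strand): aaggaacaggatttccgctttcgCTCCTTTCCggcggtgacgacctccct
Rps6 (chr4:86857343-86857392, minus strand): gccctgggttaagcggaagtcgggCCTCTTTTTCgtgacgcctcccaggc
Rplp2 (chr7:141447626-141447675, plus strand): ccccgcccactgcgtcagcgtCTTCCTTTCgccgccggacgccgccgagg
Rps24 (chr14:24490653-24490702, plus strand): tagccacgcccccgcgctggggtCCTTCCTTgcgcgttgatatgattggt
Rpl22l1 (chr3:28805483-28805532, plus strand): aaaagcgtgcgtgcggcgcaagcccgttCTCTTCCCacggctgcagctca
Rps27l (chr9:66946061-66946110, plus strand): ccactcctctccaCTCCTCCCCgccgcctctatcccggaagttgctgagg
Windows without such a run near the annotated start are shown for Rps13, Rps16 and Rpl36al, which lie at either end of the order of differences.
Rps13 (chr7:116334166-116334215, minus strand): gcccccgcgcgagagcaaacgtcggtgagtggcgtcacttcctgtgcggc
Rps16 (chr7:28350664-28350713, plus strand): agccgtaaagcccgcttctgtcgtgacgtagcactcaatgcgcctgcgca
Rpl36al (chr12:69184043-69184092, minus strand): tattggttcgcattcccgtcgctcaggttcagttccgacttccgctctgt

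The RefSeq promoter table held 61 of the 82 genes. Of these, 31 (50.8%) had a pyrimidine run on the sense strand that began within 20 bases of the annotated start, against 17.1% of the 8604 tested genes in the table and 15.7% of all 27025 genes in it. The search was chosen after the windows had been seen, the run with the greatest length was taken where a gene had several starts, and an annotated start need not be the start used in these cells. In the whole window of 250 bases before to 50 after the start, on both strands, GGAAG stood in 91.8% of the 61 genes and in 80.2% of the tested genes, AAGATGG in 16.4% and 9.07%, and GGGCGG in 63.9% and 68.5%. GGAAG and AAGATGG can share the bases AAG, and a match is a description only.

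The ribosomal protein genes held between 20.6% and 25.3% of all FPKM in every library. Leaving out the 4 paralogs and the 1 processed pseudogene among the symbols, the other 77 genes ranged from Rpl21 at 154 FPKM to Rps27 at 3223 FPKM, a 21.0-fold range, with a median of 1169 FPKM, and 45 of them exceeded 1000 FPKM. Among the 100 genes with the highest mean FPKM in the tables, 60 were ribosomal protein genes, and 74 were among the highest 200. Each gene had between 981 and 103861 recovered reads per library. FPKM divides by a transcript length that is not given here, so ranges and ranks between genes depend on it. By recovered reads the order differed. In KO 1, Rpl13a had 101732 reads at 2584 FPKM, Rps27 40571 reads at 3056 FPKM and Rps15a 29239 reads at 148 FPKM.

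In sum, the genes reached 90293, 85736 and 93041 FPKM in KO 1 to 3, against 85219, 102447 and 103380 FPKM in WT 1 to 3. WT 1 was lowest of the 6 libraries and the other WT libraries were highest, so the groups overlapped. The group means were 89690 ± 3690 FPKM in the libraries labelled KO and 97016 ± 10226 FPKM in those labelled WT (SD, n = 3 each), and the KO mean was 92.4% of the WT mean. The share of all FPKM was 20.6%, 21.0% and 22.4% in KO 1 to 3 and 21.8%, 23.3% and 25.3% in WT 1 to 3. As a share of recovered reads, which is not divided by transcript length, the genes took 7.66%, 7.24% and 7.87% in KO 1 to 3 and 7.20%, 8.61% and 8.77% in WT 1 to 3. Small subunit genes held 0.839, 0.861 and 0.863 of the summed FPKM of large subunit genes in KO 1 to 3 and 0.854, 0.856 and 0.861 in WT 1 to 3, so the balance of the subunits was nearly the same in every library.

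**Figure D1:**
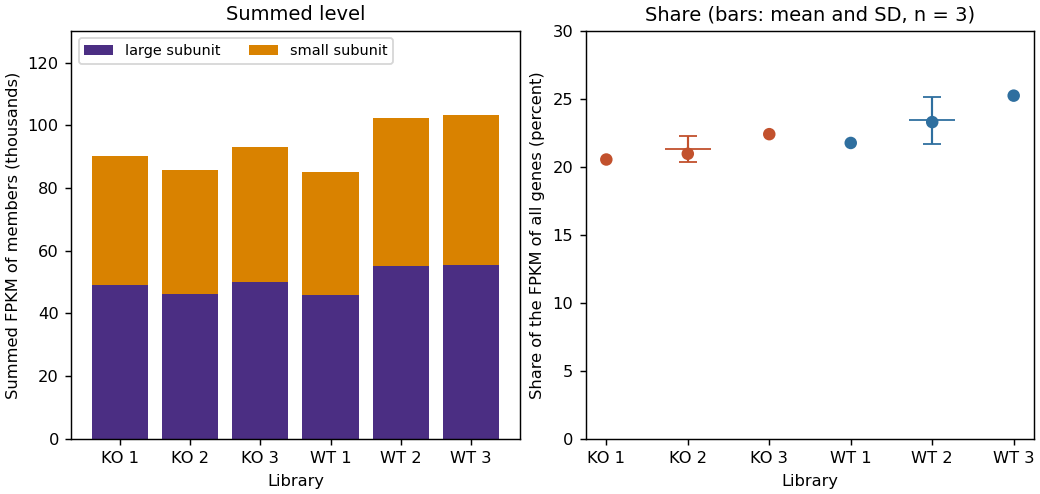
Left, summed FPKM of the large and small subunit genes in each library (axis in units of 1000 FPKM). Right, their share of all FPKM in percent, 1 point per library, with the mean and SD of each group of 3. The sum lies between 85219 and 93041 FPKM in KO 1 to 3 and WT 1 and reaches 102447 and 103380 FPKM in WT 2 and WT 3, and the shares overlap between the groups.

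No ribosomal protein gene passed the test between the groups. With limma on log2(FPKM + 1) over the 10732 genes whose mean reached 1 FPKM, 0 of the 82 were higher or lower at a Benjamini-Hochberg adjusted p under 0.05, against 0.028% higher and 0% lower of all genes tested. At an unadjusted p under 0.05 the counts were also 0 of 82 both ways, against 8.86% higher and 8.21% lower of all genes tested. Other scalings gave a few lower genes at that unadjusted threshold, 3 of 82 with a common total (7.99% of all genes tested), 6 with a common total without mitochondrial and ribosomal protein genes (12%) and 2 with quantile normalization (8.8%), all shares of the 82 below that of all genes. With limma's voom on the recovered reads the counts were again 0 of 82, against 0.0466% of all genes tested higher at the adjusted threshold and, unadjusted, 8.92% higher and 8.07% lower. In none of the 82 genes did the groups separate without overlap, while 9.75% of all genes tested did so with KO higher and 15.2% with KO lower. The 82 genes moved together from library to library, so none of these counts is one of independent observations. The 95% intervals of all 82 differences lay within 0.5 log2 units either way, the outermost bounds being −0.48 and 0.33.

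The differences were small and nearly all of 1 sign. Of the 82 genes, 79 (96.3%) had a lower mean log2 level in the libraries labelled KO, against 64.6% of all genes tested. The median difference on log2(FPKM + 1) was −0.10 over the 82 genes, −0.099 over the large and −0.11 over the small subunit genes, and −0.063 over all genes tested. The contrast with all genes depended on single libraries. The median was −0.064 over the 82 genes and −0.068 over all genes tested without WT 2, with 34 of the 82 below the median of all genes, and −0.047 and −0.046 without WT 3, with 42 of 82 below it. Among the genes reported singly, the differences ran from −0.20 for Rps24 to 0.055 for Rps27l. The SD of the differences between genes was 0.047, less than the median standard error of 0.12 of a single gene's difference, and 0.32 over all genes tested. The 82 genes moved together from library to library, so the count of 79 is not one of independent observations.

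**Figure D2:**
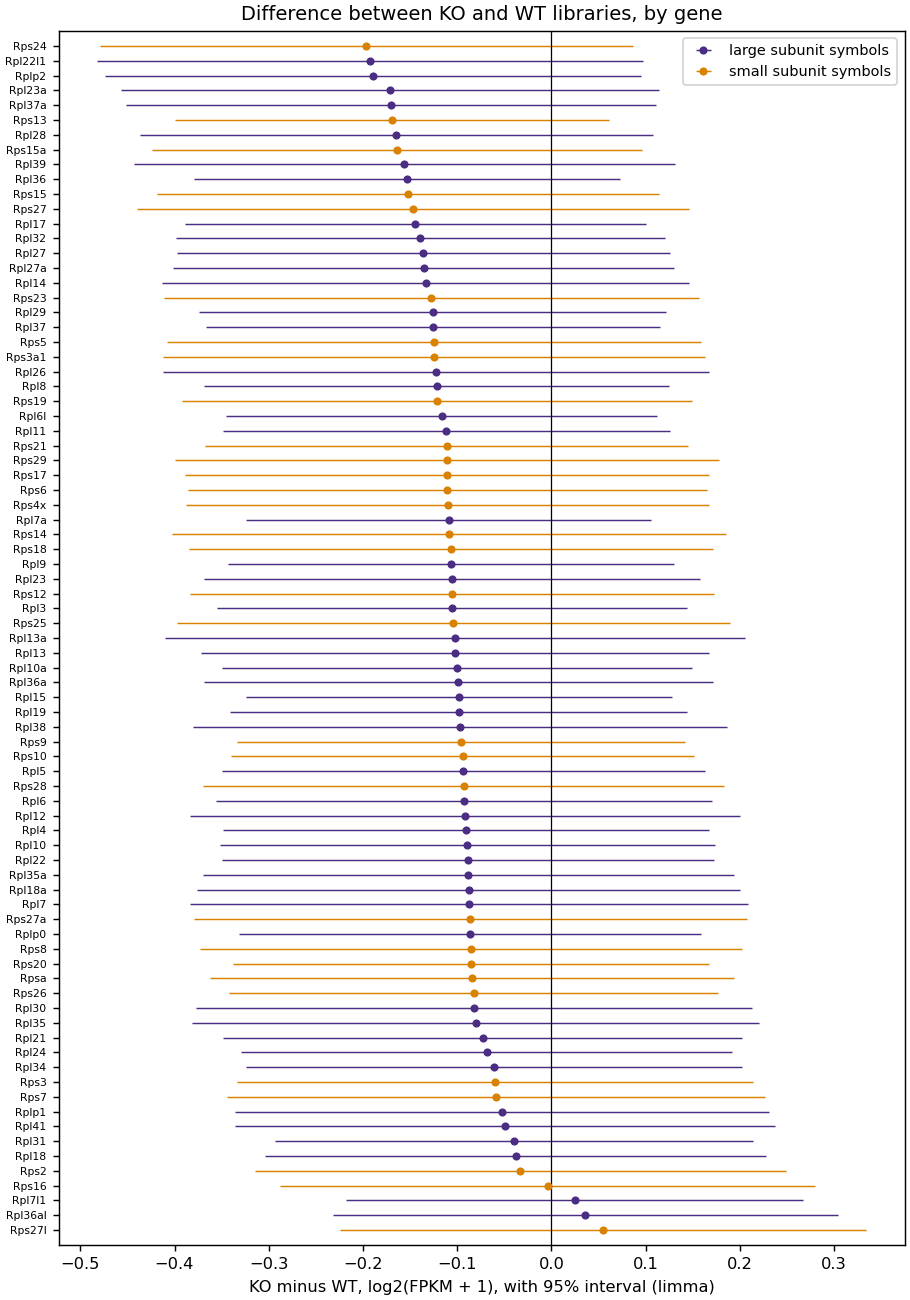
Difference on log2(FPKM + 1), KO minus WT, of 81 ribosomal protein genes, with its 95% interval from limma, large subunit symbols in purple and small subunit symbols in orange. Every interval crosses 0, and 78 of 81 points lie below it.

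The order of the libraries, rather than of the groups, was shared by the genes. WT 1 was the lowest WT library in 79 of 82 genes (96.3%), against 32.8% of all genes tested, the exceptions being Rpl7l1, Rplp2 and Rps27l. WT 1 lay within or below the range of the KO libraries in every gene but Rplp2 (98.8%, against 56% of all genes tested), and below all 3 KO libraries in 45 genes (54.9%, against 28.1%). These counts use unscaled FPKM, and WT 1 had the smallest FPKM total, 391346, against 408673 to 439451 in the others. As a share of all FPKM, the family in WT 1 (21.8%) lay above KO 1 and KO 2. The order under other scalings was not counted. WT 2 and WT 3 both lay above WT 1 and above all 3 KO libraries in 73 genes (89%, against 15.4%). Within the WT group the median log2 ratio of WT 3 over WT 1 was 0.30 over the 82 genes and 0.0093 over all genes tested, and that of WT 2 over WT 1 was 0.27 and 0.034. These ratios over the 82 genes were larger in size than the median difference between the groups. They compare single libraries, with WT 1 mostly the lowest, and the group difference compares means of 3, so the measures are unlike. Among the KO libraries KO 2 was lowest in 58 genes (70.7%, against 24.6%) and KO 3 highest in 54 (65.9%, against 36.7%), and the median SD was 5.47% of the mean in the KO group and 11.6% in the WT group, against 8.42% and 11.9% over all genes tested.

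**Figure D3:**
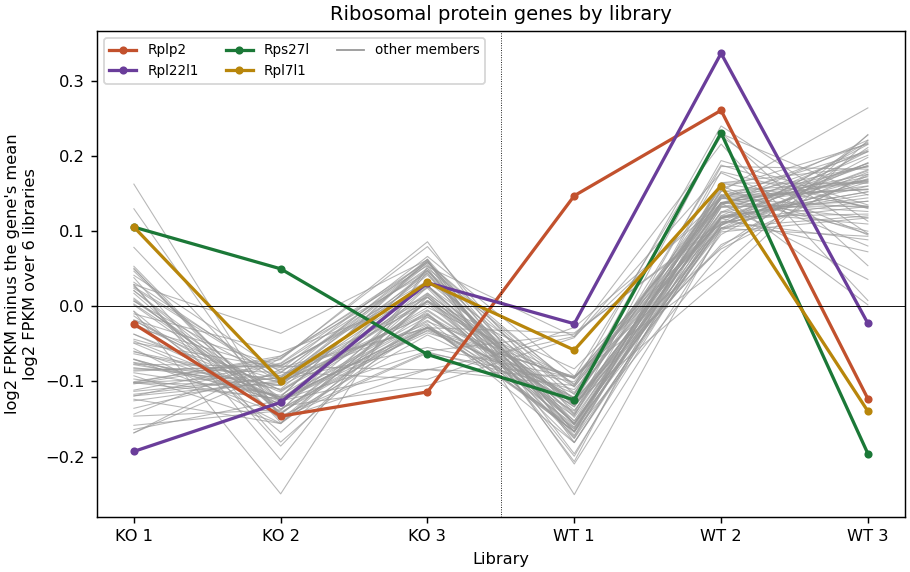
Each line is 1 of 81 genes, its log2 FPKM in each library minus its mean over the 6 libraries. Most grey lines run low in KO 1 to 3 and WT 1 and high in WT 2 and WT 3. Rplp2, Rpl22l1, Rps27l and Rpl7l1, drawn in colour, are 4 of the 9 genes in which WT 2 and WT 3 are not both above WT 1 and all KO libraries. Lines join values of the same gene and stand for no sequence of libraries.

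In the fit without WT 1, 20 of the 82 genes (24.4%) were lower in the libraries labelled KO at an unadjusted limma p under 0.05, against 8.32% of all genes tested, and 0 were higher, against 7.49%. None passed the adjusted threshold. WT 1 was the lowest WT library in 79 of the 82 genes, so leaving it out widens the difference. The counts of lower genes were 0 of 82 without WT 2, against 12.9% of all genes tested, 1 without WT 3 (Rplp2), against 5.01%, and 0 without KO 1, KO 2 or KO 3, against 3.28%, 4.15% and 6.27%. The median difference without WT 1 was −0.19 over the 82 genes and −0.059 over all genes tested. Among the 20 genes were Rpl14, Rpl17, Rpl23a, Rpl26, Rpl27a, Rpl28, Rpl29, Rpl32, Rpl37, Rpl37a, Rpl39, Rpl6l, Rps13, Rps15, Rps15a, Rps19, Rps23, Rps24 and Rps27.

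By mean FPKM, a small subunit gene stood highest in the family. Rps27, a zinc-binding protein of the small subunit and the gene of the family with the highest level (rank 7 of all genes by mean FPKM), stood at 3056, 2905 and 3195 FPKM in KO 1 to 3, against 2924, 3521 and 3740 FPKM in WT 1 to 3. WT 1 lay within the KO range, and the difference of −0.15 on log2(FPKM + 1) (SE 0.13, limma adjusted p 0.577) did not pass. Rps24, needed for processing of the precursor of ribosomal RNA and mutated in some human Diamond-Blackfan anaemia, stood at 745, 729 and 804 FPKM in KO 1 to 3, against 747, 903 and 975 FPKM in WT 1 to 3, a difference of −0.20 (SE 0.12, limma adjusted p 0.452). Rps13 stood at 1127, 1111 and 1186 FPKM in KO 1 to 3, against 1180, 1305 and 1371 FPKM in WT 1 to 3, a difference of −0.17 (limma adjusted p 0.430). In both, WT 1 was inside the KO range and WT 2 and WT 3 were above it.

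Rps6, the small subunit protein that S6 kinase phosphorylates downstream of mTORC1, stood at 895, 906 and 998 FPKM in KO 1 to 3, against 874, 1055 and 1105 FPKM in WT 1 to 3. WT 1 was below all KO libraries and the other WT libraries above them, and the difference was −0.11 (SE 0.12, limma adjusted p 0.658). Rpsa, also known as the laminin receptor precursor, stood at 1281, 1140 and 1272 FPKM in KO 1 to 3, against 1139, 1357 and 1432 FPKM in WT 1 to 3, with the same order and a difference of −0.084. Rps27a, whose protein is made as a fusion with ubiquitin, stood at 913, 777 and 924 FPKM in KO 1 to 3, against 802, 971 and 1007 FPKM in WT 1 to 3, a difference of −0.086. Rps14, lost in a human myelodysplastic syndrome, had means of 2115 ± 105 FPKM in the libraries labelled KO and 2292 ± 301 FPKM in those labelled WT (SD, n = 3 each), a difference of −0.11. The difference of none of these passed the test.

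At the other end of the small subunit genes, Rps16 stood at 1587, 1461 and 1628 FPKM in KO 1 to 3, against 1348, 1669 and 1691 FPKM in WT 1 to 3, with a difference of −0.0041 (limma adjusted p 0.990). Rps2 stood at 1311, 1056 and 1122 FPKM in KO 1 to 3, against 1092, 1298 and 1173 FPKM in WT 1 to 3, and all WT values lay inside the KO range. It has 24 near-identical annotated pseudogene copies. The signs of both flip to positive with median-of-ratios scaling. Rps9 (2297, 2101 and 2087 FPKM in KO 1 to 3, against 2190, 2455 and 2289 FPKM in WT 1 to 3) and the zinc-binding Rps29 (2034, 2073 and 2311 FPKM in KO 1 to 3, against 2046, 2605 and 2304 FPKM in WT 1 to 3) were among the 6 genes with the highest means, and in each WT 2 alone lay above the KO range.

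The stalk of the large subunit, formed by Rplp0, Rplp1 and Rplp2, recruits the elongation factors, and its genes did not share 1 library order. Rplp2 (chr7:141447370-141451585, plus strand, GENCODE M21 on mm10) stood at 1193, 1096 and 1120 FPKM in KO 1 to 3, against 1343, 1453 and 1113 FPKM in WT 1 to 3. It was the only gene of the 82 in which WT 1 lay above the KO range, and WT 3 lay inside it. Its log2 ratio of WT 3 over WT 1 was −0.27, the lowest of the family, where the median was 0.30, and the difference between the groups was −0.19 (SE 0.12, limma adjusted p 0.468). Rplp1 stood at 2679, 2343 and 2616 FPKM in KO 1 to 3, against 2324, 2825 and 2792 FPKM in WT 1 to 3. Rplp0, which anchors the stalk, stood at 1884, 1732 and 1784 FPKM in KO 1 to 3, against 1735, 1993 and 2015 FPKM in WT 1 to 3. The differences of −0.053 for Rplp1 and −0.086 for Rplp0 had limma adjusted p of 0.841 and 0.699, and that of Rplp1 turns positive with median-of-ratios scaling.

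Rpl5 and Rpl11 form a particle with the small 5S ribosomal RNA and, when ribosome assembly stalls, bind and inhibit the ubiquitin ligase Mdm2. Rpl5 stood at 624, 610 and 680 FPKM in KO 1 to 3, against 601, 707 and 740 FPKM in WT 1 to 3. Rpl11 stood at 473, 423 and 478 FPKM in KO 1 to 3, against 449, 513 and 524 FPKM in WT 1 to 3. In both genes WT 2 and WT 3 lay above all KO libraries and WT 1 did not, and the differences of −0.094 and −0.11 (limma adjusted p 0.687 and 0.602) did not pass. Rpl13a, which human monocytes also use outside the ribosome to silence inflammatory mRNAs, stood at 2584, 2221 and 2497 FPKM in KO 1 to 3, against 2242, 2736 and 2893 FPKM in WT 1 to 3, a difference of −0.10 (SE 0.13, limma adjusted p 0.713). Rpl36 stood at 544, 493 and 503 FPKM in KO 1 to 3, against 525, 611 and 577 FPKM in WT 1 to 3, a difference of −0.15 (limma adjusted p 0.462). Rpl18 stood at 661, 545 and 589 FPKM in KO 1 to 3, against 552, 655 and 635 FPKM in WT 1 to 3, with all WT values inside the KO range and a difference of −0.038 that turns positive with median-of-ratios scaling.

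The remaining 49 genes, 31 of the large and 18 of the small subunit, were all lower in mean log2 level in the libraries labelled KO, from −0.17 for Rpl23a to −0.040 for Rpl31, with limma adjusted p between 0.490 and 0.869. Their means ran from 154 FPKM for Rpl21 to 2171 FPKM for Rps18. By level, the median difference was −0.098 over the 27 genes with the lowest means, −0.10 over the middle 28 and −0.11 over the 27 with the highest, a spread far below the standard error of a single gene.

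The other parents of known paralogs followed the common order, with differences of −0.11 for Rpl3 and Rps4x, −0.093 for Rpl6, −0.088 for Rpl7, −0.089 for Rpl10 and −0.16 for Rpl39, and limma adjusted p between 0.549 (Rpl39) and 0.747 (Rpl7). Rpl39, a small protein near the exit of the peptide tunnel, stood at 973, 931 and 1048 FPKM in KO 1 to 3, against 940, 1216 and 1149 FPKM in WT 1 to 3. In all 6 of these genes WT 2 and WT 3 lay above the KO range and WT 1 did not.

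Some ribosomal proteins have a paralog that can take their place, and 3 of these paralogs, Rpl22l1, Rps27l and Rpl7l1, left the common library order. Rpl22, whose protein represses Rpl22l1 in mice, stood at 172, 166 and 189 FPKM in KO 1 to 3, against 162, 195 and 205 FPKM in WT 1 to 3. Rpl22l1 (chr3:28805436-28807424, plus strand, GENCODE M21 on mm10) stood at 170, 178 and 199 FPKM in KO 1 to 3, against 192, 246 and 192 FPKM in WT 1 to 3, a difference of −0.19 (SE 0.12, limma adjusted p 0.468). In recovered reads of KO 1, Rpl22l1 had 3175 against 14542 for Rpl22, and Rpl36al 5139 against 10419 for Rpl36a. By FPKM, which is divided by transcript length, Rpl22l1 was the only paralog with a level near that of its parent. It stood at 99.2%, 107% and 105% of Rpl22 in KO 1 to 3 and 118%, 126% and 93.4% in WT 1 to 3. WT 3 lay below and the other WT libraries above the KO range, and an exact two-sided permutation test of this percentage gave p = 0.5, adjusted p = 0.625 over the 5 pairs compared. These pairs were Rpl22l1, Rpl36al, Rps27l, Rpl7l1 and the nearly absent Rpl39l, each with its parent.

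Rpl36al differs from Rpl36a in few residues and is read from a gene of its own (chr12:69182731-69184083, minus strand), which overlaps the annotated protein-coding gene Gm49383. It stood at 259, 248 and 265 FPKM in KO 1 to 3, against 213, 273 and 271 FPKM in WT 1 to 3. Its parent Rpl36a, on the X chromosome, stood at 555, 572 and 624 FPKM in KO 1 to 3, against 541, 664 and 678 FPKM in WT 1 to 3. As a percentage of Rpl36a it was 46.7%, 43.3% and 42.5% in KO 1 to 3 and 39.5%, 41.1% and 40.0% in WT 1 to 3. All 3 KO values lay above all 3 WT values, and the exact two-sided permutation test gave p = 0.1, the smallest that 3 against 3 allows, or 0.5 adjusted over the 5 pairs. The difference of Rpl36al itself was 0.036 (limma adjusted p 0.891).

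Rps27l, a paralog of Rps27 that p53 induces, stood at 12.6, 12.2 and 11.2 FPKM in KO 1 to 3, against 10.8, 13.8 and 10.3 FPKM in WT 1 to 3. That was 0.414%, 0.419% and 0.352% of Rps27 in KO 1 to 3 and 0.369%, 0.392% and 0.274% in WT 1 to 3 (exact permutation p = 0.3). Rpl7l1, a nucleolar relative of Rpl7, stood at 42.4, 36.8 and 40.3 FPKM in KO 1 to 3, against 37.9, 44.1 and 35.8 FPKM in WT 1 to 3. That was 3.00%, 2.70% and 2.60% of Rpl7 in KO 1 to 3 and 2.86%, 2.83% and 2.06% in WT 1 to 3 (exact permutation p = 0.7). These percentages depend on the transcript lengths used for FPKM. In recovered reads of KO 1, Rps27l had 1333 against 40571 for Rps27, and Rpl7l1 4242 against 50650 for Rpl7. In both Rps27l and Rpl7l1, WT 2 was the highest library and WT 3 the lowest. Their differences, 0.055 for Rps27l and 0.025 for Rpl7l1, were the highest and the third of the family, did not pass (limma adjusted p 0.834 and 0.919), and turn negative when totals are rescaled without mitochondrial and ribosomal protein genes.

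**Figure D4:**
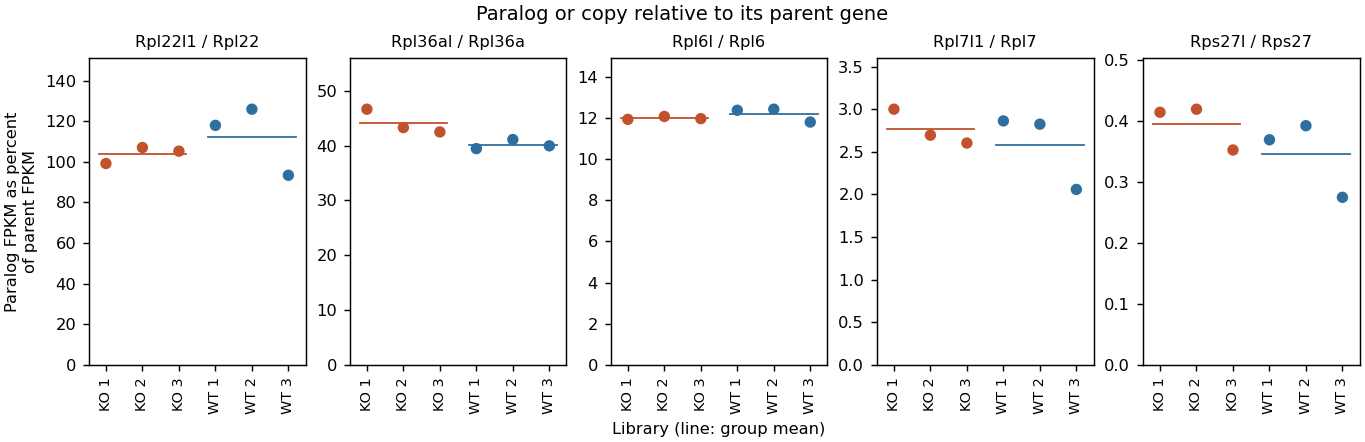
FPKM of a paralog or copy as a percentage of the FPKM of its parent, 1 point per library, with a line at each group mean of 3. The KO points lie above the WT points for Rpl36al alone, and Rpl6l stays near 12% of Rpl6 in every library. Rpl6l was not among the pairs that the permutation p-values were adjusted over, and Rpl39l, which was, is not drawn.

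Rps27l (mean 11.8 FPKM), Rpl7l1 (39.5 FPKM) and Rpl6l (82.0 FPKM) were the genes just inside the level of 1 FPKM. Just outside it were Rpl32l (0.681 FPKM), Rpl39l (0.341 FPKM), known from the testis, and Rpl3l (0.0050 FPKM), known from heart and skeletal muscle. Rpl39l had 2, 6 and 13 reads in KO 1 to 3, against 8, 8 and 26 in WT 1 to 3, and was at most 0.0756% of Rpl39. Rpl3l had at most 1 read in a library.

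Rpl6l is annotated as a processed pseudogene (chr10:111125851-111126721, plus strand) and was 98.7% identical to Rpl6 over 871 bases, 98.1% of its coding sequence. At 11.9% to 12.1% of Rpl6 in the 3 libraries labelled KO and 11.8% to 12.4% in the 3 labelled WT, a pair compared after its values had been seen, it followed Rpl6 in every library. The counting of reads shared by such copies is not given in the sources used here, so the reads of Rpl6l and Rpl6 cannot be told apart with certainty. Of the 81 genes annotated as protein-coding, 76 had at least 1 annotated pseudogene that matched at least 90% of their coding sequence at 95% identity or more, with a median of 5 copies and up to 55 for Rpl21. The median level was 909 FPKM over the 16 genes with at least 10 copies, 1186 FPKM over the 60 with 1 to 9 and 1220 FPKM over the 5 with none, and the median differences between the groups were −0.10, −0.10 and −0.12.

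The genes lay on 19 chromosomes, 14 of them on chromosome 7 and 4 on the X chromosome. Inside 30 of them lay annotated genes of small nucleolar RNAs, 58 in all, which guide the modification of ribosomal RNA. Their median difference was −0.10, and −0.11 in the 52 genes without one. The 31 genes with a pyrimidine run beginning within 20 bases of the annotated start had a median difference of −0.10, and the 30 without one −0.096. Some of these runs end before the annotated start, so these medians do not compare TOP mRNAs with others. Another protein-coding gene overlapped 19 of the 82 genes, with a median difference of −0.098.

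Components of the ribosome that the symbols leave out followed the same library order. Fau, whose protein carries the small subunit protein S30 behind a ubiquitin-like domain, stood at 1274, 1176 and 1260 FPKM in KO 1 to 3, against 1156, 1413 and 1493 FPKM in WT 1 to 3. Rack1, a signalling scaffold on the small subunit, stood at 1328, 1147 and 1209 FPKM in KO 1 to 3, against 1148, 1351 and 1345 FPKM in WT 1 to 3. WT 2 and WT 3 lay above all KO libraries in both genes, and the differences of −0.12 for Fau and −0.060 for Rack1 had limma adjusted p of 0.629 and 0.801. That of Rack1 turns positive with median-of-ratios scaling.

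Of 24 other mRNAs of the TOP class, among them elongation factors and snoRNA host genes, all 24 were lower in mean log2 level in the libraries labelled KO. Of all genes tested, 64.6% were lower. Genes of a list can move together, so such counts are not of independent observations. The median of the 24 was −0.10, and 0 passed the adjusted test. Their lowest p belonged to Snhg1, a snoRNA host whose RNA is not translated, at 65.7, 70.7 and 81.2 FPKM in KO 1 to 3, against 89.0, 85.4 and 91.7 FPKM in WT 1 to 3. Its groups did not overlap, as in 15.2% of all genes tested with KO lower, but a gene picked by its p favours such a separation. The difference of −0.29 (SE 0.098) had a limma adjusted p of 0.210. Gas5, another such host, followed with a difference of −0.21 (limma adjusted p 0.317), and Eef1a1, the elongation factor that delivers transfer RNA, had −0.082 (limma adjusted p 0.738).

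The genes that build ribosomes gave no call either. Of 73 nucleolar processing and assembly factors, 64 (87.7%) were lower in mean log2 level in the libraries labelled KO. Of all genes tested, 64.6% were lower. The median of the 73 was −0.091, with 0 adjusted calls. Wdr74, which acts in large subunit assembly, had 24.7 ± 0.523 FPKM in the libraries labelled KO and 29.7 ± 3.32 FPKM in those labelled WT (SD, n = 3 each), a difference of −0.25 with a limma adjusted p of 0.252. Of 15 genes of RNA polymerase I and its factors, 14 (93.3%) were lower, with a median of −0.15 and 0 adjusted calls. Among them Taf1d, a subunit of the selectivity factor of that polymerase, stood at 9.33, 10.7 and 12.5 FPKM in KO 1 to 3, against 13.6, 16.5 and 15.4 FPKM in WT 1 to 3. All KO values lay below all WT values, as in 15.2% of all genes tested. Taf1d was named for the smallest p of its list, which favours such a separation, so that share is no like comparison. The difference of −0.45 (SE 0.12) had an unadjusted limma p of 0.0069 and an adjusted p of 0.144.

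Initiation factors were divided in sign, 19 lower and 12 higher of 31, with a median of −0.029. Eif2b4, a subunit of the exchange factor of initiation factor eIF2, had a difference of −0.21 (limma adjusted p 0.222) and Eif4ebp1, the translation repressor that mTORC1 phosphorylates, 0.28 (limma adjusted p 0.325). Of 26 genes of mTORC1 and LARP1, 15 were lower and 11 higher, with a median of −0.014. Mlst8, a subunit of mTORC1, stood at 8.29, 7.85 and 8.54 FPKM in KO 1 to 3, against 10.3, 11.6 and 10.3 FPKM in WT 1 to 3. Rps6kb2, a kinase of Rps6, stood at 21.0, 21.4 and 22.8 FPKM in KO 1 to 3, against 25.4, 29.4 and 27.8 FPKM in WT 1 to 3. In both the groups did not overlap, and the limma adjusted p were 0.132 and 0.141. Both genes were named for the small p in their list, which favours groups without overlap. The 15.2% of all genes tested that separated with KO lower is therefore no like comparison. Lamtor4, which helps bring mTORC1 to the lysosome, stood at 62.8, 49.2 and 47.1 FPKM in KO 1 to 3, against 34.2, 49.4 and 34.7 FPKM in WT 1 to 3, a difference of 0.43 (limma adjusted p 0.265).

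Ribosome quality control genes had 14 lower and 8 higher of 22, with a median of −0.033. The lowest p was that of Gtpbp2, which rescues stalled ribosomes, with a difference of −0.30 (limma adjusted p 0.189). The 78 genes of the mitochondrial ribosome, a separate particle, had a median of −0.051 with 54 lower and 24 higher, closer to the −0.063 of all genes tested than to the −0.10 of the cytosolic genes. Their share of all FPKM was 0.372%, 0.354% and 0.364% in KO 1 to 3 and 0.365%, 0.396% and 0.372% in WT 1 to 3. None of these lists held a gene past the adjusted threshold. The other genes with the smallest p of their lists were Eif3f of the TOP class (−0.20), the initiation factor Eif4g3 (−0.24), the nucleolar Grwd1 (−0.26) and Nat10 (−0.19), Taf1a (−0.30) and Polr1e (−0.22) of RNA polymerase I, Usp10 (−0.18) and Gcn1 (−0.15) of quality control, and Mrps22 (−0.22), Mrps26 (−0.24) and Mrpl1 (−0.24) of the mitochondrial ribosome. Their limma adjusted p lay between 0.241 (Mrps22) and 0.391 (Eif3f).

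**Figure D5:**
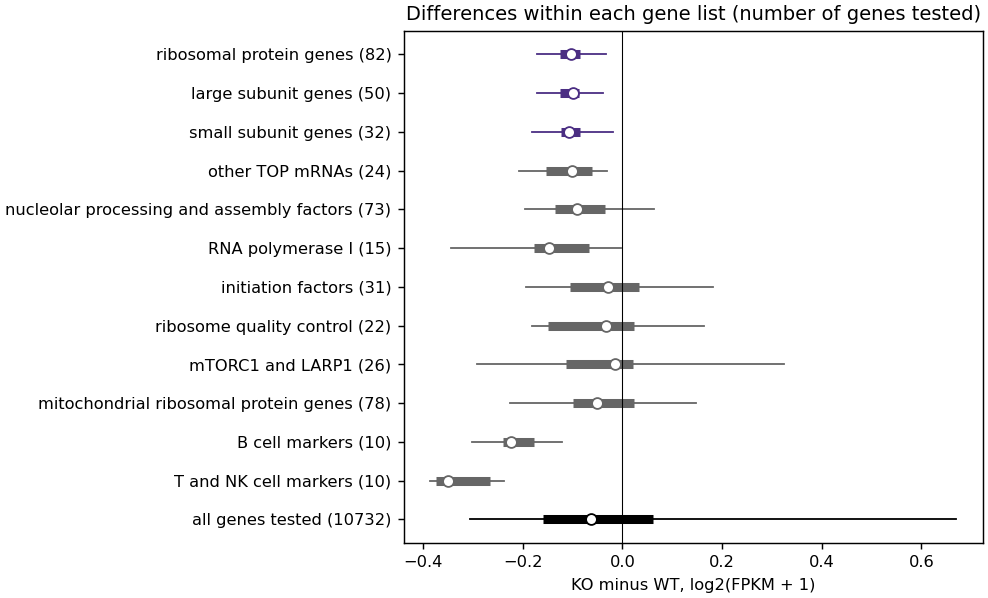
Differences on log2(FPKM + 1), KO minus WT, within each gene list and over all genes tested. The circle is the median, the thick bar spans the interquartile range and the thin line all but the outer 5% of genes on each side. The thick bar of the ribosomal protein genes, around −0.10, lies inside that of all genes tested.

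Markers of the cells that the co-culture could hold differed between the libraries. Summed over 18 markers of peritoneal macrophages, FPKM was 14491, 9231 and 6865 in KO 1 to 3 and 2791, 5597 and 1674 in WT 1 to 3, with 16 of the 17 tested genes higher in mean in the libraries labelled KO. The 10 B cell markers summed to 4443, 4481 and 4835 FPKM in KO 1 to 3 and 5031, 5734 and 5460 FPKM in WT 1 to 3, all 10 lower in the libraries labelled KO with a median of −0.22. The 11 markers of T and NK cells in the tables summed to 164, 189 and 193 FPKM in KO 1 to 3 and 202, 242 and 250 FPKM in WT 1 to 3, with a median of −0.35. Of 12 microglia markers, 11 were in the tables and summed to between 99.1 and 125 FPKM. Of the 6 that were tested, 5 were higher in mean log2 level in the libraries labelled KO, with a median of 0.39. The defining genes were low, Tmem119 at 0.203 to 2.43 FPKM, P2ry12 at 0.268 to 1.09 FPKM and Sall1 at 0 to 0.152 FPKM. Other markers of the list made up most of its sum. Tmem119 stood at 2.24, 2.14 and 2.43 FPKM in KO 1 to 3, against 0.461, 1.04 and 0.203 FPKM in WT 1 to 3. Markers of astrocytes and oligodendrocytes summed to between 15.7 and 23.3 FPKM. In such mixed bulk RNA, fewer cells of a type and less RNA per cell cannot be told apart, and the part of these shifts in the ribosomal protein values was not tested.

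Ppara was listed at 0.0325, 0.0588 and 0.0270 FPKM in KO 1 to 3 and at 0.0290, 0.0026 and 0.0055 FPKM in WT 1 to 3, too low in every library to check the labels. Mitochondrially encoded genes held 2.68%, 3.33% and 3.62% of all FPKM in KO 1 to 3 and 3.65%, 3.93% and 3.59% in WT 1 to 3. Without them in the total, the ribosomal protein genes held 21.1%, 21.7% and 23.3% in KO 1 to 3 and 22.6%, 24.3% and 26.2% in WT 1 to 3, in the same order of libraries. The reads recovered from the tables summed to between 34542822 and 38092819 per library.

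Scaling each library to the sum of the ribosomal protein genes, an alternative chosen after the data had been seen, gives each gene relative to its family and moves every difference up by nearly the same amount (median 0.11). Dividing by this sum removes what the genes share from library to library. The median standard error was therefore lower by construction, 0.064 against 0.12 without this scaling. The difference was 0.15 for Rps27l and −0.088 for Rps24. No gene passed at an adjusted or an unadjusted p under 0.05, while of all genes tested 0.335% were higher at the adjusted threshold and, unadjusted, 10.6% were higher and 0.96% lower. By unadjusted limma p, Rpl36al (0.14, p 0.0928) and Rps16 (0.10, p 0.0938) had the smallest values, both higher relative to the family.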

How the data were processed

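Total RNA was extracted with TRIzol and made into libraries with the VAHTS Universal V6 kit, per the labels' protocols. The authors deposited FPKM values, 1 table of 21399 symbols per library, with mm10 as the build named in the submitters' processing notes. Not given in the sources used here are the annotation, the aligner, the counter and its strand setting. Overlapping and antisense genes can therefore not be told apart. FPKM values are already scaled to depth and length, so a family that takes more of a library lowers the values of other genes.

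From these values, log2(FPKM + 1) of the 10732 genes whose mean reached 1 FPKM was tested in R 4.3.3 by limma 3.58.1 (eBayes, trend, Benjamini-Hochberg threshold 0.05), with no further scaling, 3 libraries labelled KO against 3 labelled WT. Intervals are 95%. Each gene's FPKM values were whole multiples of a step, which gave back whole reads, up to a factor common to a gene, for 19331 of 19331 genes with reads in at least 2 libraries (100%, tolerance 0.002 reads). These were used for voom and read shares. The fit and the recovery were tested on simulated data. Exact permutation tests, two-sided, compared the paralog percentages. Positions and pseudogenes came from GENCODE M21, copies from blastn 2.17.0 against 13523 pseudogenes, and promoters from RefSeq (GRCm38.p6). Other tools were Python 3.11.15, pandas 2.3.3, numpy 2.4.6, scipy 1.17.1 and matplotlib 3.10.9.

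The genes, lists and alternatives were chosen with earlier results of these data known. Named were the 6 genes with the highest mean, the 6 highest and 6 lowest by moderated t, the stalk and 5S particle genes, Rps27a, Rpsa, Rps6, paralogs with their parents, the 3 genes either side of the level limit, and 3 per other list by p. Rpl10l and Rps4l, also listed as paralogs, were not analysed here, and some genes that these rules name are not reported here. Alternatives, 18 in all, were other pseudocounts and filters, 4 scalings and quantile normalization, no variance trend, a replicate block, voom, and leaving out each library.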

Additional observations from a re-analysis of the deposited data

How the results depend on the processing

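No ribosomal protein gene passed the adjusted threshold under any of the 18 alternatives, and the smallest adjusted p of any of them ranged from 0.112 (quantile normalization, Rps27) to 0.644. Their median difference of −0.10 was −0.030 with median-of-ratios scaling, −0.13 with a common total, −0.18 with a common total without mitochondrial and ribosomal protein genes, −0.091 with quantile normalization and 0.0050 when scaled to their own sum, and the median of all genes tested was 0.00067, −0.087, −0.13, −0.064 and 0.031 under these. Leaving out 1 library gave −0.19 (without WT 1) to −0.047 (without WT 3).

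Counts of all genes higher in the libraries labelled KO were 3 as reported, 6 with a pseudocount of 5, 0 without a filter, 6 with the total without mitochondrial and ribosomal protein genes, 36 scaled to the ribosomal protein genes, 11 with the replicate block and 5 with voom. Leaving out 1 library gave 0 to 500 higher and 0 to 38 lower, with 0 higher without WT 1 or WT 3, and 500 higher and 38 lower without WT 2. Whether the replicate numbers pair the libraries is not given. The correlations of same-numbered deviations from the group means were −0.21, −0.38 and 0.27, and those of different-numbered ones ran from −0.36 to 0.47. Deviations within a group sum to 0, so these values constrain one another and cannot decide it. Under the block 0 ribosomal protein genes were called.

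Scaled to the ribosomal protein genes, list medians were −0.015 for the 3 other components, 0.0061 for TOP mRNAs, 0.068 for initiation factors, 0.0065 for nucleolar factors and 0.072 for mTORC1. With the total without mitochondrial and ribosomal protein genes they were −0.16 for nucleolar factors and −0.083 for mTORC1, and with median-of-ratios scaling −0.023 for nucleolar factors. As shares of recovered reads the family took 7.66%, 7.24% and 7.87% in KO 1 to 3 and 7.20%, 8.61% and 8.77% in WT 1 to 3.

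Of 1024 values of 57 named genes, 982 kept their sign. Scaling to the family adds nearly the same amount to each difference (median 0.11), which by construction turned the small negative values of Rpl10 (0.019), Rpl13a (0.0057), Rpl18 (0.070), Rpl22 (0.019), Rpl3 (0.0029), Rpl36a (0.0095), Rpl5 (0.015), Rpl6 (0.015), Rpl7 (0.021), Rplp0 (0.022), Rplp1 (0.056), Rps16 (0.10), Rps2 (0.075), Rps27a (0.022), Rps9 (0.012), Rpsa (0.024) and Rack1 (0.048) positive. With median-of-ratios scaling signs turned for Rpl18 (0.035), Rplp1 (0.020), Rps16 (0.069), Rps2 (0.040) and Rack1 (0.013), and with quantile normalization for Rps2 (0.0042), Rpsa (0.011) and Rack1 (0.030). Rpl7l1 turned to −0.0018 with a common total. Without mitochondrial and ribosomal protein genes in the total, Rpl7l1 was −0.052, Rpl36al −0.042 and Rps27l −0.017. Leaving out 1 library gave −0.11 to 0.026 for Rpl18, −0.080 to 0.097 for Rpl36al, −0.19 to 0.0043 for Rpl7, −0.037 to 0.11 for Rpl7l1, −0.14 to 0.0059 for Rplp1, −0.11 to 0.053 for Rps16, −0.12 to 0.033 for Rps2 and −0.022 to 0.18 for Rps27l. The reported difference of each gene whose sign turned was below its standard error. Apart from the scaling to the family, the cause was not tested.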
